A study of Mus musculus with 16 samples.

Results

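Fatty acid oxidation genes and targets of the nuclear receptor PPAR-alpha (gene Ppara) were followed in liver and white adipose tissue of mice sired by obese or control fathers. The group was chosen by gene symbol. It lists 39 genes, of which 38 have a probe set on the array, out of 19505 gene symbols in all, and each of the 38 has a single probe set. Etfb, the second subunit of the electron transfer flavoprotein, is the listed gene without one. RNA was measured on Affymetrix arrays in 16 libraries from 14-week-old male C57BL/6J mice, an inbred laboratory strain, with 4 libraries in each of 4 groups. Liver F1 and eWAT F1 came from offspring of obese fathers, and liver CT and eWAT CT from offspring of control fathers. From the age of 8 weeks and for 12 weeks before mating, the fathers called obese were given feed with 45% lipid and control fathers chow. All mothers were controls, so both groups share the maternal side and differ in the father's diet. The labels call the libraries of a group biological replicates, but no source used here names the father or litter of a mouse, and the p-values therefore reflect only the spread among 4 and 4 samples, some of which may share a father.

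Fatty acids enter mitochondria as carnitine esters and are shortened there by a cycle of dehydrogenation, hydration, a second dehydrogenation and thiolysis. Peroxisomes run a parallel cycle with their own enzymes, used mainly for very long and branched chains and for fatty acids that have been oxidized at the far end. PPAR-alpha binds fatty acids, pairs with the retinoid X receptor on DNA and raises transcription of genes of both cycles, above all in the fasting liver, while white fat relies mostly on its relative PPAR-gamma.

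The deposited values are on the log2 scale, with medians per library between 5.21 and 5.24 for liver and between 6.34 and 6.56 for eWAT. The tissues appear to have been normalized separately, so levels are compared within a tissue only. The hepatocyte marker list (18 of 20 on the array) had medians of 19.59 to 19.79 in liver F1 and 19.57 to 19.73 in liver CT, and the adipocyte list (11 of 12) 17.76 to 18.03 in eWAT F1 and 17.76 to 17.93 in eWAT CT, so each tissue held the defining transcripts of its label. Several libraries also held transcripts of other tissues. Liver F1 4 had an exocrine pancreas marker median of 10.84, against 3.99 to 4.75 in the other 7 liver libraries (16 of 18 markers on the array), and liver F1 1 and F1 2 had skeletal muscle medians of 4.70 and 4.62, against 3.75 to 3.88 in the other liver libraries (14 of 14 markers). These muscle medians were faint, near the 3.9 used to leave out dim liver genes, and the markers were mixed. Myh1 read 5.69 and 4.87 in F1 1 and F1 2, against 3.58 to 3.91 in liver CT. Ckm read 5.80 and 5.82 there, against 5.36 to 6.22 in liver CT. In eWAT the hepatocyte median was 10.81, 13.30, 10.14 and 14.46 in F1 1 to F1 4 and 7.29, 6.53, 12.61 and 12.22 in CT 1 to CT 4. Seminal vesicle genes stood apart in eWAT F1 1, where Svs2 read 16.22, against 2.47 to 4.88 in the other 7 eWAT libraries. Of the 17 genes of the male tract list on the array, 5 (Svs2, Svs4, Svs5, Spinkl and Pate4, picked after their values were seen) read 9.56 to 16.22 there, while the list's median was 3.26. Skeletal muscle medians were 3.34 to 4.08 in eWAT F1 and 3.71 to 5.49 in eWAT CT, highest in CT 1 and CT 4. In whole tissue, fewer cells of a type and less RNA per cell cannot be told apart.

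In liver, most of these genes had a lower mean in the offspring of obese fathers, and none passed the test. Of the 38 members, 32 were lower and 6 higher in liver F1 than in liver CT, with a median difference of -0.40 on the log2 scale. Over all 14772 genes tested the median difference was 0.00 and 7392 genes (50%) lay below 0. The lowest adjusted p among the members was 0.0695, and 23 genes of the whole table (0.156%) were called at an adjusted p under 0.05, 7 of them lower (0.0474%) and 16 higher (0.108%). At an unadjusted p under 0.05, 16 members were lower and 0 higher, against 688 lower (4.66%) and 659 higher (4.46%) of all genes, or 9.12% together. In 10 members all 4 F1 values lay below all 4 CT values, as they did in 396 genes (2.68%) of the table. The members that stood lowest in liver F1 were the ketone body enzyme Bdh1, the peroxisomal enzymes Acaa1b and Ehhadh and the kinase Pdk4, each more than 2-fold lower in mean.

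**Figure D1:**
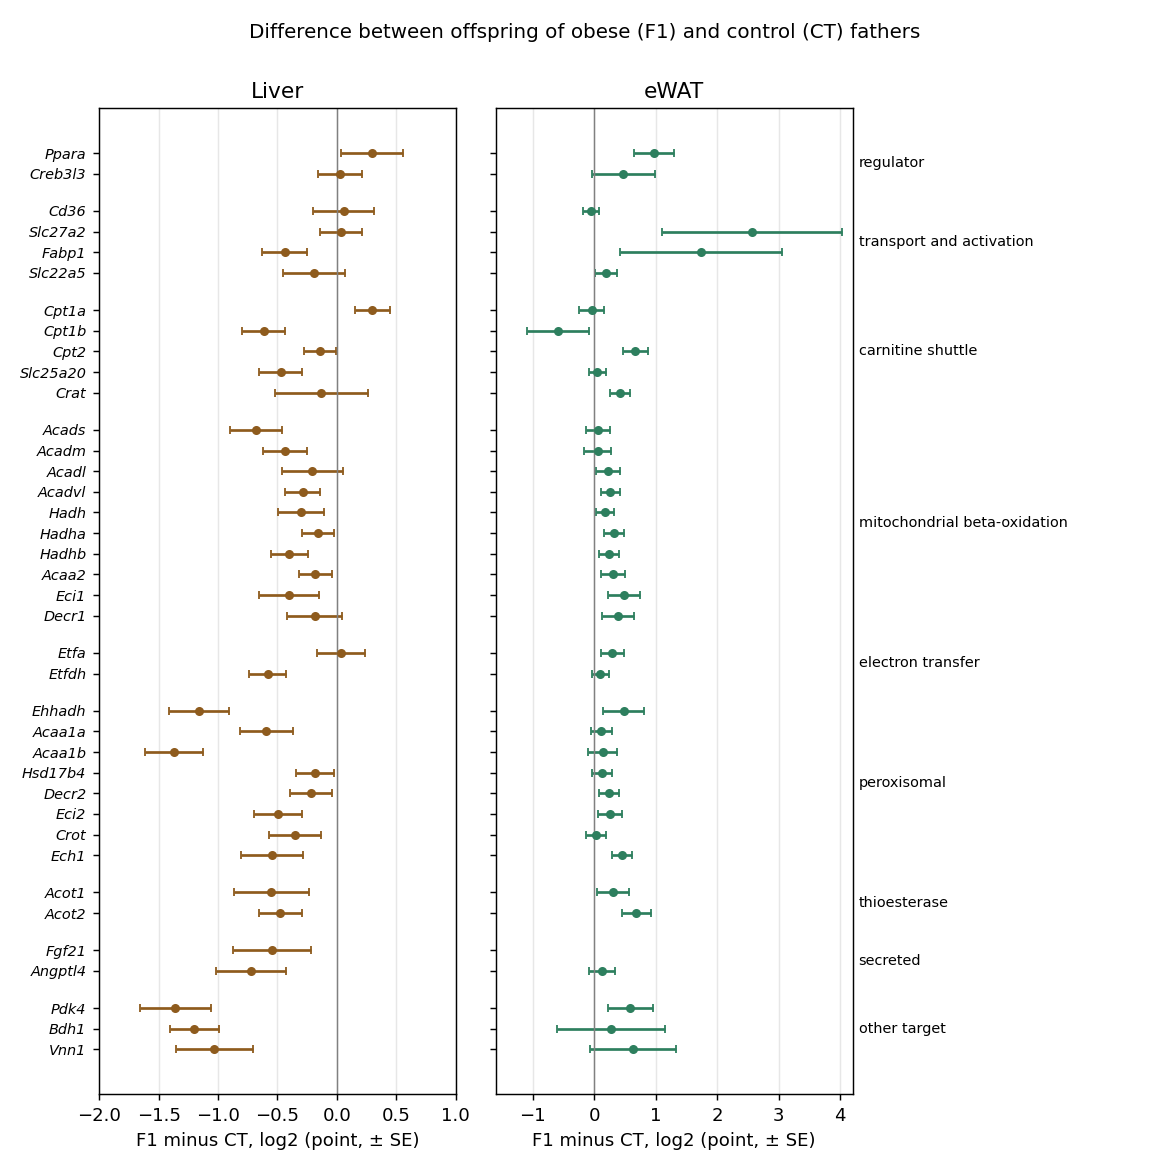
Difference between F1 and CT for each member, grouped by role, in liver (left) and eWAT (right). Points are F1 minus CT on the log2 scale and bars are the standard error of the fit (4 F1 and 4 CT libraries per tissue); the scales of the panels differ. Most liver points lie left of 0 and most eWAT points right of it, and Fgf21 has no eWAT point because it was too dim there.

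The promoters of the pair of peroxisomal genes with the largest liver differences, and of Fabp1, whose promoter alone among the members held a loose form of the receptor's repeat, are shown first. PPAR-alpha and its partner bind direct repeats of the hexamer AGGTCA with 1 base between the copies. The promoter windows are RefSeq sequences of 300 bases, on assembly GRCm38.p6, from 250 bases before to 50 bases after the gene's start, written 5′ to 3′ on the gene's strand. Acaa1b lies at chr9:119157044-119157343 on the minus strand, Ehhadh at chr16:21787785-21788084 on the minus strand and Fabp1 at chr6:71199629-71199928 on the plus strand. Capitals mark the match in Fabp1 to the loose form AGGNCANAGGNCA, in which a single copy is AGGTCA. It reads on the strand opposite to the gene and begins at base -67 from the start.
Acaa1b: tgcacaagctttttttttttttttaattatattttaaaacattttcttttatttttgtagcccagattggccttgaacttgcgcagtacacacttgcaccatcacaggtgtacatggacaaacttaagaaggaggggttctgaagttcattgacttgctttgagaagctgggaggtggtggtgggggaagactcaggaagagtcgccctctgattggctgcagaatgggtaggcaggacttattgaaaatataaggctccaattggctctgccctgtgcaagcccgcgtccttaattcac
Ehhadh: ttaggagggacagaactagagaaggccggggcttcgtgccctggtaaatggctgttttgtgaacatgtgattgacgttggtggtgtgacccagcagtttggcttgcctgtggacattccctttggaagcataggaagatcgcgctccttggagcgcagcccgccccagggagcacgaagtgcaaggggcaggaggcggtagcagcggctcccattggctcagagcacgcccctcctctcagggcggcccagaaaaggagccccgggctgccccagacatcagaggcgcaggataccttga
Fabp1: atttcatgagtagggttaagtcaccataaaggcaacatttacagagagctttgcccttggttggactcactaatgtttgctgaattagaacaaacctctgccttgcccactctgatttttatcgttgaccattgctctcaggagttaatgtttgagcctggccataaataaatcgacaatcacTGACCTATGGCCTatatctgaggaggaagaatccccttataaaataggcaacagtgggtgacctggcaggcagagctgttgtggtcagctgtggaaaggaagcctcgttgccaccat

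Promoters were found in the table for 31 of the 38 members on the array, and for Etfb. Searched on both strands, the hexamer AGGTCA occurred in 7 of these 32 genes (21.9%), namely Acadm, Acadvl, Cd36, Cpt1a, Creb3l3, Fabp1 and Slc27a2, and in 5340 of all 32851 promoters (16.3%). The members were counted by gene and the whole set by promoter. Counted by promoter, the hexamer was in 7 of the 34 promoters of these genes. The repeat AGGTCANAGGTCA was in 0 of the 32 genes and in 13 promoters of the table (0.0396%). The looser form AGGNCANAGGNCA, which overlaps with it, was in Fabp1 only among the 32 and in 125 promoters (0.381%). Acaa1b and Ehhadh held neither the hexamer nor a repeat in these windows. These matches describe the letters of short windows, and sites farther from the start were not searched.

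Of the oxidation steps, the largest differences in liver were those of 2 peroxisomal enzymes, Acaa1b and Ehhadh. The other 6 peroxisomal members ran from -0.59 to -0.18, inside the range of the mitochondrial members, with a mean of -0.40. All 8 had a lower mean in F1, with a median difference of -0.52, 4 had an unadjusted p under 0.05 and 2 had no overlap between the groups. Of all genes, 4.66% were lower at that p and 2.68% had all F1 values below CT. Acaa1b, a thiolase that makes the last cut of the peroxisomal cycle, read 12.61, 12.49, 11.85 and 12.72 in liver F1 and 13.89, 14.26, 13.62 and 13.37 in liver CT. Every F1 library was below every CT library, and the difference of -1.37 ± 0.25 (SE), or 2.58-fold, had an adjusted p of 0.0834. Its near-identical copy Acaa1a read 12.30, 12.59, 12.33 and 13.19 in F1 and 12.98, 13.38, 13.41 and 13.01 in CT. F1 1, F1 2 and F1 3 were below CT and F1 4 lay among the CT values, with a difference of -0.59 ± 0.22 (adjusted p = 0.479). No source used here gives the probe sequences, so how well the array tells the 2 thiolases apart is uncertain.

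Ehhadh, the bifunctional enzyme that carries out the middle steps of the peroxisomal cycle, read 15.22, 15.01, 14.44 and 15.16 in liver F1 and 16.14, 16.70, 15.96 and 15.67 in liver CT. The groups did not overlap, and the difference was -1.16 ± 0.25, or 2.23-fold (adjusted p = 0.155). Ech1, a dienoyl-CoA isomerase whose product is found in both organelles, read 13.14, 12.84, 12.97 and 14.05 in F1 and 13.73, 13.56, 14.03 and 13.86 in CT. F1 4 was the highest of the 8 and the other 3 F1 libraries were the lowest. The difference was -0.55 ± 0.26 with all libraries and -0.81 ± 0.18 without F1 4 (adjusted p = 0.575 and 0.172). The remaining peroxisomal members were Eci2, an enoyl-CoA isomerase (-0.50 ± 0.20), Crot, which exports products as carnitine esters (-0.35 ± 0.22), Decr2, which handles unsaturated chains (-0.22 ± 0.18), and Hsd17b4, the second bifunctional enzyme (-0.18 ± 0.16), all with overlapping groups. Without Ech1, 7 of 7 peroxisomal members were lower and the median was -0.50.

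Among the other targets, Bdh1 had the smallest p of all members. Bdh1, the mitochondrial dehydrogenase that forms the ketone body beta-hydroxybutyrate, read 14.89, 15.63, 14.92 and 15.50 in liver F1 and 16.46, 16.19, 16.57 and 16.52 in liver CT. F1 1 and F1 3 were lowest, all 4 F1 libraries were below CT, and the difference was -1.20 ± 0.21, or 2.30-fold (adjusted p = 0.0695). Pdk4, which restrains glucose oxidation by inhibiting pyruvate dehydrogenase, read 6.79, 6.25, 7.53 and 6.75 in F1 and 7.66, 8.09, 8.23 and 8.78 in CT. These groups did not overlap either, with a difference of -1.36 ± 0.30, or 2.57-fold (adjusted p = 0.162). Vnn1, a pantetheinase, read 8.39, 9.04, 9.18 and 10.11 in F1 and 10.16, 10.62, 10 and 10.06 in CT. F1 4 fell within the CT range, and the difference of -1.03 ± 0.32 (adjusted p = 0.352) was -1.34 without F1 4, the library with pancreas transcripts, and -0.57 without F1 1 and F1 2, the libraries with the most muscle transcripts. The part of those transcripts in the result was not tested. Leaving out F1 1 and F1 2 was a setting chosen after seeing the data.

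**Figure D2:**
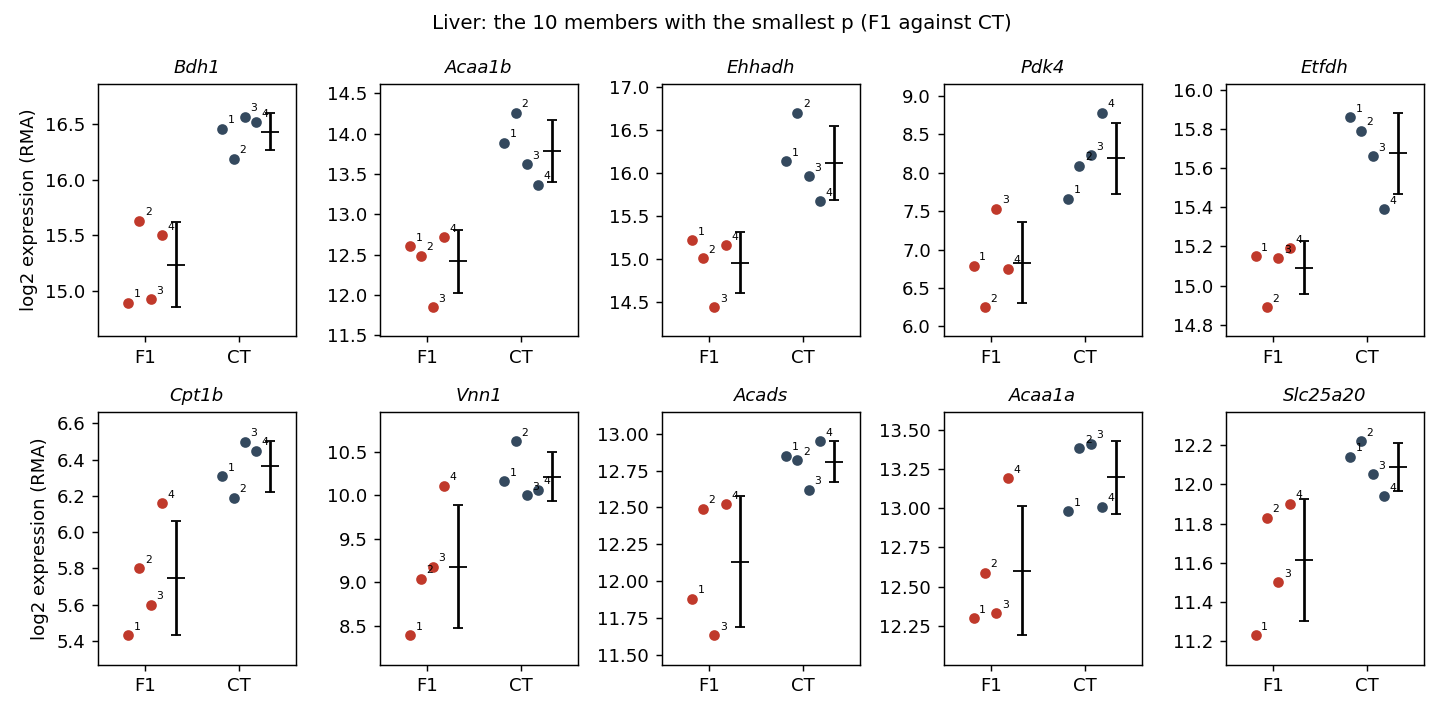
Log2 expression in each liver library of the 10 members with the smallest p. Numbered points are libraries, F1 at the left and CT at the right of each panel, and the bars give the mean ± SD of 4 libraries. In 8 panels all F1 points lie below all CT points; in Vnn1 and Acaa1a library F1 4 reaches the CT range.

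Angptl4 and Fgf21, which act outside the cell, were also at lower means in liver F1. Angptl4, an inhibitor of lipoprotein lipase, read 13.30, 13.44, 14.31 and 14.39 in F1 and 14.28, 14.21, 14.84 and 14.99 in CT. F1 1 and F1 2 were below all CT libraries and F1 3 and F1 4 were among them (-0.72 ± 0.30, adjusted p = 0.507). Fgf21, the fasting hormone of the liver, was faint at 4.10, 3.68, 3.92 and 5.21 in F1 and 4.68, 4.90, 5.22 and 4.28 in CT, with overlapping groups (-0.54 ± 0.33, adjusted p = 0.674). The thioesterase Acot2, which releases free fatty acids from their CoA esters in mitochondria, read 6.97, 6.97, 6.73 and 7.03 in F1 and 7.16, 7.14, 7.51 and 7.79 in CT. These groups did not overlap (-0.48 ± 0.18, adjusted p = 0.483). Its cytosolic relative Acot1 differed by -0.55 ± 0.32 with overlapping groups (adjusted p = 0.661), and the similarity of the Acot genes leaves their separate signals uncertain.

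Mitochondrial steps, taken as the carnitine shuttle, the beta-oxidation cycle and electron transfer, were lower in liver F1 in 15 of 17 members, with a median difference of -0.29. Of these, 6 had an unadjusted p under 0.05 and 5 had groups that did not overlap. Over all genes the shares were 4.66% lower at that p and 2.68% with all F1 values below CT. Etfdh, which passes electrons from the flavoprotein to ubiquinone, read 15.15, 14.89, 15.14 and 15.19 in F1 and 15.86, 15.79, 15.66 and 15.39 in CT. All F1 libraries were below CT (-0.58 ± 0.16, adjusted p = 0.271). Acads, the short-chain acyl-CoA dehydrogenase, read 11.88, 12.49, 11.63 and 12.52 in F1 and 12.85, 12.82, 12.62 and 12.95 in CT. F1 1 and F1 3 were furthest below CT, and no F1 library reached the CT range (-0.68 ± 0.22, adjusted p = 0.376).

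The dehydrogenases for longer chains had smaller differences in liver, at -0.44 ± 0.19 for Acadm (medium chains), -0.21 ± 0.26 for Acadl (long chains) and -0.29 ± 0.15 for Acadvl (very long chains), each with overlapping groups. Hadhb, the thiolase subunit of the trifunctional protein, read 13.25, 13.18, 13.13 and 13.31 in F1 and 13.31, 13.63, 13.86 and 13.67 in CT. The F1 libraries lay at or below the lowest CT library, with F1 4 and CT 1 at the same value (-0.40 ± 0.16, adjusted p = 0.488). Hadha, the other subunit, differed less, at -0.16 ± 0.13, although its groups did not overlap. The rest of the cycle, namely Hadh, Acaa2, Eci1 and Decr1, ranged from -0.40 (Eci1, an enoyl-CoA isomerase) to -0.18 (Acaa2, the last thiolase), with overlapping groups. Etfa, the partner of the gene without a probe set, was level at 0.03 ± 0.20.

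Within the carnitine shuttle, the 2 forms of the entry enzyme had differences of opposite sign in liver. Cpt1b, the muscle form of the entry enzyme, was faint at 5.43, 5.80, 5.60 and 6.16 in F1 and 6.31, 6.19, 6.50 and 6.45 in CT, narrowly without overlap (-0.62 ± 0.18, adjusted p = 0.327). F1 1 and F1 2, at 5.43 and 5.80, were the liver libraries with the most skeletal muscle transcripts. The part of those transcripts in the Cpt1b values was not tested. Cpt1a, the liver form and the step that limits entry, read 15.21, 15.07, 15.33 and 15.27 in F1 and 14.89, 14.88, 15.16 and 14.76 in CT. Its F1 mean was higher by 0.30 ± 0.15 (adjusted p = 0.594), and CT 3 reached into the F1 range. Slc25a20, the translocase that carries acylcarnitines across the inner membrane, read 11.23, 11.83, 11.50 and 11.90 in F1 and 12.14, 12.22, 12.05 and 11.94 in CT. These groups did not overlap (-0.47 ± 0.18, adjusted p = 0.483). Cpt2, which regenerates the CoA ester inside, and Crat, which handles acetyl groups, differed by -0.15 ± 0.13 and -0.13 ± 0.39.

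Ppara itself did not have a lower mean in liver F1. Its levels were 14.32, 14.77, 15.28 and 15.44 in F1 and 14.35, 14.50, 15.01 and 14.77 in CT, a difference of 0.30 ± 0.26 with a 95% interval of -0.28 to 0.87 (adjusted p = 0.795). F1 1 was the lowest and F1 4 the highest of the 8, and the difference was 0.13 without F1 4 (adjusted p = 0.921) and 0.70 without F1 1 and F1 2 (adjusted p = 0.478). Creb3l3, a liver transcription factor that acts with PPAR-alpha on fasting genes, was level (0.03 ± 0.19). Of the uptake proteins, Fabp1, the main fatty acid binding protein of hepatocytes, read 16.53, 16.85, 16.93 and 17.29 in F1 and 17.23, 17.18, 17.58 and 17.37 in CT. F1 4 lay within the CT range and the other 3 F1 libraries below it (-0.44 ± 0.19, adjusted p = 0.516). Cd36 and Slc27a2, which take up and activate fatty acids, and Slc22a5, the carnitine importer, differed by 0.06 ± 0.26, 0.04 ± 0.18 and -0.19 ± 0.26.

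Liver F1 4, the library with pancreas transcripts, was the highest of the 4 F1 libraries in 25 of the 38 members. Without it, 34 of 38 members were lower, with a median of -0.44 and no member called. In either direction, 20 members had an unadjusted p under 0.05. Without liver F1 1 and F1 2, a setting chosen after seeing the data, 31 members were lower and the median was -0.23. There 8 members had an unadjusted p under 0.05 in either direction, among them Ppara, which had a higher mean. The share of all genes at that p was counted only with all libraries, at 9.12% in either direction.

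In eWAT the same list lay the other way in most members, and again none passed the test. Of 37 members kept, 34 had a higher and 3 a lower mean in eWAT F1 than in eWAT CT, with a median difference of 0.26. Fgf21 was left out as dim. Over all 14775 genes tested the median was 0.00 and 7348 (49.7%) lay above 0 and 7427 (50.3%) below. No gene of the table was called (0%), and the lowest adjusted p among the members was 0.389. At an unadjusted p under 0.05, 5 members were higher and 0 lower, against 735 higher (4.97%) and 742 lower (5.02%) of all genes. All 4 F1 libraries lay above all 4 CT libraries in 4 members, as in 430 genes of the table (2.91%), and all below in 0 members, against 445 genes (3.01%).

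Markers of other cell types also differed in mean between the eWAT groups. Of the 14 macrophage markers on the array (of 15), 12 had a lower mean in eWAT F1, with list medians of 10.61 to 11.29 in F1 and 10.94 to 11.83 in CT. Csf1r, the growth factor receptor of macrophages, was the one of them without overlap, at 14.33, 14.62, 14.63 and 14.56 in F1 and 14.92, 15.28, 14.81 and 15.07 in CT. Lyz2 averaged 16.05 ± 0.40 in F1 and 16.85 ± 0.48 in CT, and Adgre1 11.32 ± 0.35 in F1 and 12.45 ± 0.72 in CT (SD, n = 4 each). Cd163, at 12.62 to 12.94 in F1 and 12.28 to 12.69 in CT, had a higher mean in F1. So did the faint Clec4f, at 3.09 to 4.0 in F1 and 2.49 to 3.27 in CT. The red cell list was represented by 2 of 7 genes, Alas2 and Slc4a1, with medians of 7.56 to 8.37 in F1 and 6.95 to 7.43 in CT. The brown and beige fat list (7 of 7) had medians of 4.46 to 4.99 in F1 and 4.24 to 4.59 in CT. Its gene Cidea read 7.60, 4.90, 5 and 5.51 in F1 and 4.17, 4.08, 4.39 and 4.73 in CT without overlap, while Ucp1, which defines brown fat, stayed at 2.01 to 2.35 in F1 and 2.14 to 2.74 in CT, below the level used to leave out dim genes. The part of these cell types in the eWAT differences of the members was not tested.

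Cpt2 had the smallest p of the members in eWAT. It read 13.81, 13.09, 13.27 and 13.02 in eWAT F1 and 12.65, 12.81, 12.44 and 12.61 in eWAT CT. All F1 libraries were above CT, with F1 1 well above the other 3, and the difference was 0.67 ± 0.20, or 1.59-fold (adjusted p = 0.389). Crat read 14.98, 14.83, 14.71 and 14.44 in F1 and 14.38, 14.18, 14.38 and 14.33 in CT. The groups did not overlap, though F1 4 was close to CT (0.42 ± 0.16, adjusted p = 0.435). Hadha read 16.12, 15.73, 15.61 and 15.76 in F1 and 15.53, 15.45, 15.40 and 15.55 in CT, again without overlap and with F1 1 the highest (0.32 ± 0.16, adjusted p = 0.529). Ech1 read 14.42, 14.73, 14.51 and 14.60 in F1 and 14.27, 14.25, 14.07 and 13.86 in CT. Here F1 1 was the lowest F1 library and still above every CT library (0.45 ± 0.16, adjusted p = 0.412).

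Ppara and Acot2 had larger differences with overlapping groups. Ppara read 8.96, 8.02, 8.50 and 8.63 in eWAT F1 and 7.29, 6.85, 8.39 and 7.69 in eWAT CT. CT 3 lay above F1 2, and the difference was 0.97 ± 0.33, or 1.96-fold (adjusted p = 0.412). Acot2 read 11.02, 10.70, 10.26 and 10.10 in F1 and 10.17, 9.60, 9.71 and 9.86 in CT. Only CT 1 reached into the F1 range, just above F1 4 (0.69 ± 0.23, adjusted p = 0.412). Pdk4 read 11.33, 12.35, 12.42 and 13.09 in F1 and 11.24, 11.50, 11.85 and 12.27 in CT, with F1 1 low and the other 3 F1 libraries above CT (0.58 ± 0.37, adjusted p = 0.622).

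**Figure D3:**
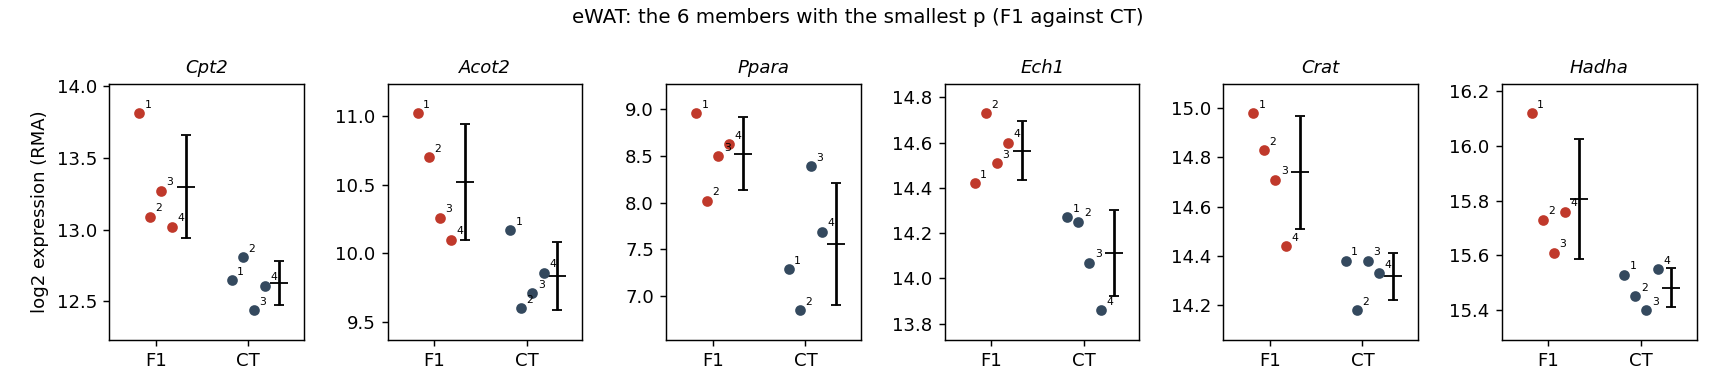
Log2 expression in each eWAT library of the 6 members with the smallest p. Numbered points are libraries, F1 at the left and CT at the right of each panel, and bars give the mean ± SD of 4 libraries. In Cpt2, Ech1, Crat and Hadha all F1 points lie above all CT points, and library F1 1 is the highest in 5 of the 6 panels.

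The beta-oxidation cycle lay above 0 in eWAT in all 10 members, between 0.06 (Acadm, Acads) and 0.48 (Eci1), none with an unadjusted p under 0.05. Of all genes 4.97% were higher at that p. Eci1 read 10.60, 9.88, 10.19 and 10.36 in F1 and 10.24, 9.98, 9.14 and 9.74 in CT, with F1 2 and CT 1 in each other's range. Acadvl read 12.88, 12.64, 12.63 and 12.46 in F1 and 12.50, 12.36, 12.45 and 12.25 in CT, where F1 4 fell among the CT values. Hadhb read 14.32, 13.81, 13.85 and 13.95 in F1 and 13.83, 13.72, 13.63 and 13.79 in CT, and CT 1 lay above F1 2. Acadl, Hadh, Acaa2 and Decr1 ranged from 0.17 to 0.38, Etfa and Etfdh were at 0.29 and 0.10, and the translocase Slc25a20 was at 0.05.

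All 8 peroxisomal members also had higher means in eWAT F1, with a median of 0.19. Ech1 was the single one with an unadjusted p under 0.05, against 4.97% of all genes that were higher at that p. Ehhadh read 12.69, 11.73, 11 and 11.80 in F1 and 11.47, 11.56, 11.40 and 10.88 in CT. F1 1 was far above the rest and F1 3 was among the lowest (0.48 ± 0.33, adjusted p = 0.651). Acaa1b read 9.39, 8.72, 8.94 and 9.47 in F1 and 8.67, 9.50, 8.89 and 8.92 in CT, with fully mixed groups (0.14 ± 0.24). The other 5, Acaa1a, Hsd17b4, Decr2, Eci2 and Crot, ranged from 0.03 to 0.26.

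The 3 members below 0 in eWAT were Cpt1b, Cd36 and Cpt1a. Cd36, the main fatty acid uptake protein of fat cells, and Cpt1a were level at -0.05 ± 0.14 and -0.05 ± 0.21. Cpt1b read 4.89, 5.06, 4.89 and 4.35 in F1 and 4.17, 5.88, 4.69 and 6.81 in CT, spread by CT 2 and CT 4 (-0.59 ± 0.51). CT 4 was one of the 2 eWAT libraries with raised muscle markers, and CT 1, the other, had the lowest Cpt1b value. The part of muscle transcripts was not tested. Without CT 1 and CT 4, 7 of the 37 members were below 0 and 2 had an unadjusted p under 0.05. With all libraries 10% of all genes had such a p, and the share without CT 1 and CT 4 was not counted. Angptl4, Slc22a5 and Acot1 were at 0.12, 0.19 and 0.30 with overlapping groups.

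Several members followed the hepatocyte transcripts in eWAT, among them genes known mainly from hepatocytes. Slc27a2 read 7.34, 10.04, 7.27 and 11.20 in eWAT F1 and 4.45, 3.13, 9.26 and 8.75 in eWAT CT. It was lowest in CT 1 and CT 2, where the hepatocyte markers were lowest, and it ordered all 28 pairs of eWAT libraries as the hepatocyte marker median did. Fabp1 read 7.93, 10.80, 8.29 and 12.47 in F1 and 6.40, 5.68, 10.55 and 9.94 in CT and ordered 27 of the 28 pairs that way. The same order held in 26 or more pairs for 3 members, the last being Acaa2, and for 170 of 16661 probe sets (1.02%), with a median of 13 pairs.

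Creb3l3, Vnn1 and Bdh1 had 25, 24 and 23 pairs in that order, and the peroxisomal reductase Decr2 had 24. Creb3l3 read 5.88, 7.25, 6.22 and 7.46 in F1 and 5.18, 5.74, 7.40 and 6.59 in CT. Vnn1 read 5.89, 7.34, 5.57 and 8.95 in F1 and 7.22, 5.46, 6.34 and 6.23 in CT, and Bdh1 4.30, 6.53, 4.58 and 7.90 in F1 and 4.71, 4.38, 7.31 and 5.82 in CT. F1 4, with the most hepatocyte transcripts, was the highest library in Creb3l3, Vnn1 and Bdh1. The defining hepatocyte gene Alb was itself far above the floor in eWAT, at 16.65 to 19.07 in F1 and 12.43 to 18.91 in CT.

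The F1 differences of these genes in eWAT moved with the handling of the hepatocyte signal. The covariate and the setting without 4 libraries were chosen after seeing the data. Slc27a2 differed by 2.57 ± 1.47 and Fabp1 by 1.73 ± 1.32 with all libraries. With the hepatocyte marker median as a covariate the differences were 0.16 ± 0.23 and -0.39 ± 0.35, Bdh1 moved to -0.99 ± 0.50 against 0.27 ± 0.87, and Creb3l3 to -0.27. Among the members with the smallest p, Cpt2 was at 0.83 ± 0.21, Ech1 at 0.51 ± 0.19 and Ppara at 0.69 ± 0.34 with that covariate (adjusted p = 0.426, 0.453 and 0.534), while Pdk4 was at 0.20 and Eci1 at 0.73. Without the 3 eWAT libraries that stood above the rest in hepatocyte markers (F1 2, F1 4 and CT 3), Ppara was at 1.45 ± 0.32 (adjusted p = 0.636), Ech1 at 0.34 ± 0.24 (adjusted p = 0.752) and Pdk4 at 0.21. Without the 4 libraries with the most hepatocyte transcripts, which also leaves out CT 4, Ppara was at 1.66 ± 0.30 (adjusted p = 0.225), Ech1 at 0.21 ± 0.24 (adjusted p = 0.804) and Eci1 at 0.29. Ppara thus moved down with the covariate and up with either set of libraries left out, and Ech1 the other way. Cpt2 moved up in each of these settings, to between 0.81 and 0.85, against 0.67 ± 0.20 with all libraries. With the covariate 7 of 37 members lay below 0 and the median was 0.20. Without the 3 libraries 7 members lay below 0 and without the 4 libraries 9, against 3 with all libraries. The medians were 0.225 and 0.235 in these settings. Leaving out Slc27a2, Fabp1, Creb3l3, Bdh1 and Vnn1 (and the dim Fgf21) from the values of all libraries, a choice made after their values were seen, 29 of 32 members had higher means in F1, with a median of 0.24. Leaving out Acaa2 and Decr2 as well, so that all 7 members with 23 or more pairs in order were gone, 27 of 30 had higher means, with a median of 0.23.

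**Figure D4:**
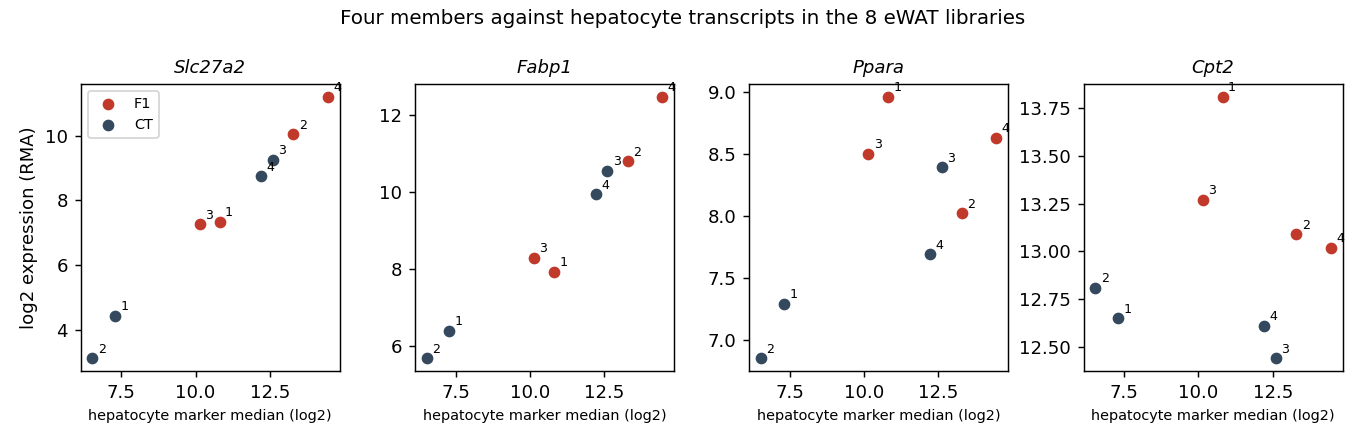
Log2 expression of Slc27a2, Fabp1, Ppara and Cpt2 (vertical) against the median of the hepatocyte markers (horizontal, log2) in the 8 eWAT libraries, F1 in red and CT in dark blue, numbered by replicate. Slc27a2 and Fabp1 climb with the hepatocyte markers in both groups, while in Cpt2 the 4 F1 libraries lie above the CT libraries. The hepatocyte medians ran from 10.14 to 14.46 in F1 and from 6.53 to 12.61 in CT, so only part of the axis holds both groups.

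The eWAT library with seminal vesicle transcripts, F1 1, was the highest F1 library in 20 of the 38 members. Without it, 6 of 37 members lay below 0, with a median of 0.22 and 5 members at an unadjusted p under 0.05. Over all genes that share was 10% with all libraries and was not counted without F1 1. Cpt2 was at 0.50 without F1 1 (adjusted p = 0.591), Acot2 at 0.52, Crat at 0.34, Hadha at 0.22, Ppara at 0.83 and Ech1 at 0.50. Pdk4 was at 0.91 without it, against 0.58 with all libraries, and Slc27a2 at 3.11, against 2.57. The part of seminal vesicle transcripts in these values was not tested.

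The F1 effect in liver was set against the F1 effect in eWAT by an interaction term fitted over all 16 libraries together. The labels do not say whether liver and eWAT libraries came from the same mice; the fit took them as independent, and its SE and p would not account for shared animals. In 36 of 38 members the liver effect was the lower one, with a median difference between the effects of -0.66, and 0 members were called. Of all 16068 genes tested 8017 (49.9%) lay below 0 and 8051 (50.1%) above, the median was 0.00 and 12 were called (0.0747%), 5 of them below 0 (0.0311%) and 7 above (0.0436%). At an unadjusted p under 0.05 there were 16 members, all below 0, against 754 genes below 0 (4.69%) and 772 above (4.8%). Of the 37 members kept in both tissues 30 had a lower mean in liver F1 together with a higher mean in eWAT F1, a pattern of 3357 of 13479 genes (24.9%).

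Acaa1b had the smallest p of this comparison, with a difference between the effects of -1.50 ± 0.36 (adjusted p = 0.171), which came from liver, since its eWAT effect was 0.14. Pdk4 (-1.94 ± 0.50, adjusted p = 0.200) and Ehhadh (-1.64 ± 0.43, adjusted p = 0.215) had effects of opposite sign, negative in liver and positive in eWAT. The Ehhadh value leaned on eWAT F1 1, the library with seminal vesicle transcripts. Without that library Ehhadh was at -1.34, Acaa1b at -1.42 and Pdk4 at -2.265 (adjusted p = 0.333, 0.301 and 0.105). Acot2 was at -1.16 ± 0.30 (adjusted p = 0.204) and Etfdh at -0.68 ± 0.21 (adjusted p = 0.317). Cpt2 was at -0.82 ± 0.24 (adjusted p = 0.291), most of it from eWAT. Ech1 was at -1.0 ± 0.31 (adjusted p = 0.330), and without liver F1 4 at -1.26 ± 0.23 with an adjusted p of 0.0467. Hadhb was at -0.64 ± 0.22 (adjusted p = 0.378), and Cpt1a (0.34 ± 0.25) and Cd36 (0.11 ± 0.30) were the members above 0. For Ppara the difference between the effects was -0.68 ± 0.44, with a 95% interval of -1.61 to 0.25 (adjusted p = 0.666), and it ranged from -1.37 without the 4 eWAT libraries with the most hepatocyte transcripts to -0.27 without liver F1 1 and F1 2.

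Without the 4 eWAT libraries with the most hepatocyte transcripts, a setting chosen after seeing the data, the interaction was called for Slc27a2 (-3.48 ± 0.43, adjusted p = 0.000849) and Fabp1 (-2.51 ± 0.37, adjusted p = 0.00255). The libraries left, F1 1 and F1 3 against CT 1 and CT 2, still differed in the hepatocyte marker median, and the part of those transcripts in both calls was not tested. With the covariate in place of leaving libraries out, the same effects were -0.12 ± 0.29 and -0.05 ± 0.40.

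Mitochondrial and peroxisomal steps were compared library by library, each gene first centred on its CT mean. In liver the mean over the 8 peroxisomal members was -0.65, -0.63, -0.91 and -0.27 in F1 1 to F1 4 and -0.03, 0.14, 0.11 and -0.22 in CT 1 to CT 4. The mean over the 17 mitochondrial members was -0.30, -0.33, -0.41 and -0.10 in F1 and -0.11, 0.06, 0.14 and -0.09 in CT. F1 4 was nearest to CT in both and F1 3 furthest from it. The gap between them (peroxisomal minus mitochondrial) was -0.345, -0.29, -0.51 and -0.17 in F1 1 to F1 4. In liver CT the same gap was 0.08, 0.09, -0.03 and -0.13, so the groups did not overlap, though F1 4 and CT 4 were close. Without Acaa1b and Ehhadh, a choice made after their values were seen, the gap was -0.22, -0.10, -0.21 and 0.08 in F1 1 to F1 4 and 0.05, -0.04, 0.06 and -0.06 in CT 1 to CT 4, and F1 4 then lay above every CT library.

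In eWAT the peroxisomal mean was 0.42, 0.12, 0.05 and 0.33 in F1 and 0.00, 0.14, 0.01 and -0.15 in CT, and the mitochondrial mean 0.38, 0.10, 0.15 and 0.17 in F1 and -0.03, 0.12, -0.12 and 0.03 in CT. Both overlapped between the groups, CT 2 lying above the lowest F1 library. The gap between the step groups was 0.04, 0.02, -0.10 and 0.16 in eWAT F1 and 0.03, 0.02, 0.13 and -0.17 in eWAT CT, without separation. The difference between the tissues had a median of -0.73 over the peroxisomal members (8 of 8 below 0) and -0.52 over the mitochondrial members (16 of 17 below 0). No p is given for these means, since their members were grouped with results of these data known.

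**Figure D5:**
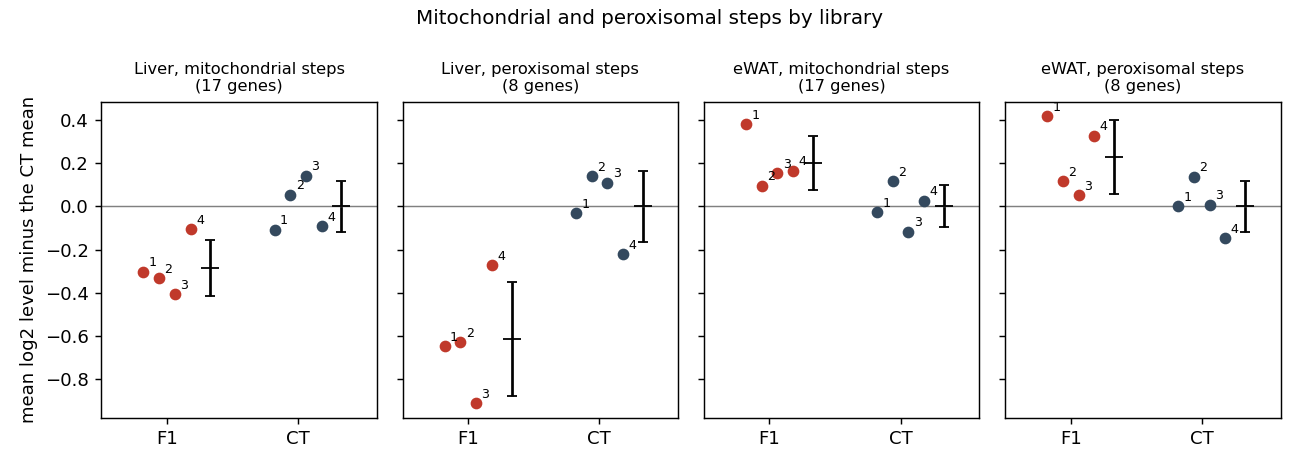
Mean log2 level of the 17 mitochondrial and 8 peroxisomal members in each library, each gene centred on the CT mean of its tissue, with F1 left of CT in each panel and bars for the mean ± SD of 4 libraries. In liver the peroxisomal means averaged -0.61 in F1 and the mitochondrial means -0.29, both against 0 in CT by construction; in eWAT they averaged 0.23 and 0.20.

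A list of 63 other genes of the pathway, 54 of them on the array, was followed beside the members. In liver 34 of its 51 kept genes were lower and 17 higher in F1, with a median of -0.10 and 0 called. At an unadjusted p under 0.05, 6 were lower and 4 higher, against 4.66% lower and 4.46% higher of all genes. The largest differences were those of Cyp4a14 and Cyp4a10, fatty acid omega-hydroxylases and classic PPAR-alpha targets of mouse liver. Cyp4a14 read 11.93, 10.42, 7.27 and 12.83 in liver F1 and 14.12, 16.16, 16.46 and 15.27 in liver CT, a difference of -4.89 ± 1.04, or 29.7-fold (adjusted p = 0.148). Cyp4a10 read 13.63, 14.20, 12.11 and 15.31 in F1 and 15.46, 16.44, 16.38 and 16.21 in CT (-2.31 ± 0.56, adjusted p = 0.212). In both genes all F1 libraries were below CT and F1 3 was the lowest library, as it was in Ehhadh and Acaa1b. Their relatives Cyp4a31 and Cyp4a32 were at -0.06 ± 0.46 and 0.18 ± 0.46 with overlapping groups (adjusted p = 0.984 and 0.948).

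Other liver genes of that list lay on both sides of 0. Acot3, a peroxisomal thioesterase, was at -1.13 ± 0.23 (adjusted p = 0.123) and Acat1, a thiolase of ketone metabolism, at -0.44 ± 0.14 (adjusted p = 0.363), both without overlap. Ppargc1b, a coactivator of PPAR-alpha, read 10.03, 10.14, 11.30 and 10.32 in F1 and 7.90, 8.49, 8.47 and 9.27 in CT. Every F1 library was above CT, opposite to most members (1.92 ± 0.34, adjusted p = 0.0753). Nudt7, a peroxisomal hydrolase of CoA, was higher in mean by 0.89 ± 0.26 with overlapping groups (adjusted p = 0.324).

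In eWAT 40 of the 51 kept genes of that list had higher and 11 lower means in F1, with a median of 0.25 and 0 called. At an unadjusted p under 0.05, 11 were higher and 1 lower, against 4.97% higher and 5.02% lower of all genes. Acacb, the carboxylase whose product malonyl-CoA restrains entry of fatty acids into mitochondria, read 11.03, 10.73, 10.09 and 10.23 in eWAT F1 and 9.22, 9.20, 9.94 and 9.40 in eWAT CT. All F1 libraries were above CT (1.08 ± 0.26, adjusted p = 0.362). Pex11a, which promotes division of peroxisomes, read 12.43, 11.87, 11.94 and 11.60 in F1 and 11.29, 11.46, 11.41 and 11.14 in CT, also without overlap (0.64 ± 0.20, adjusted p = 0.389). Nudt7 (0.58), the liver X receptor Nr1h3 (0.48), Hsd17b10, a mitochondrial dehydrogenase of branched chains (0.56), and Slc25a42, a CoA carrier (1.03), followed by p, with adjusted p of 0.396, 0.401, 0.412 and 0.412. Slc25a42 read 10, 9.98, 10.16 and 10.22 in F1 and 8.39, 8.47, 10.17 and 9.23 in CT. Slc27a5 read 4.68, 7.61, 5.75 and 8.87 in F1 and 4.18, 4.34, 7.97 and 6.77 in CT. Both were lowest in CT 1 and CT 2, where the hepatocyte markers were lowest. The list was not ordered against those markers as the members were, and their part in its counts was not tested. In the interaction 42 of 52 kept genes of the list lay below 0, with a median of -0.41 and 0 called, led by Hsd17b10 at -1.07 ± 0.26 (adjusted p = 0.182).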

How the data were processed

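The deposited table holds log2 expression values for 22206 probe sets in 16 libraries, made by the authors with RMA; per the submitters' processing notes the program was Transcriptome Analysis Console 4.0. RMA brings arrays to a common distribution, which hides a change shared by most genes. Sorted values of 2 libraries differed by at most 0.2 within liver, 0.53 within eWAT and 1.39 to 1.71 between tissues, so the tissues appear to have been normalized separately. Differences are compressed near the top of the scale, at about 19.9, which no member reached. Arrays have no read depth, so their number limits the precision.

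Probe sets were named through the platform annotation (19572 with a symbol, 2634 without), and the brightest of several was kept for 55 symbols. F1 was compared with CT in each tissue by lmFit and eBayes of limma 3.58.1 (R 4.3.3), leaving out genes with a mean below the 25th percentile (3.9 in liver, 3.47 in eWAT), with Benjamini-Hochberg adjustment over all genes kept and a threshold of 0.05. The tissue difference is the interaction in 1 fit of 16 libraries. All adjusted p-values are limma's, ± marks the SE of a difference, and differences are F1 minus CT, or liver effect minus eWAT effect, in log2. The code was tested on simulated data with 200 changed genes. Levels of different probe sets were not compared. No scan date or batch was used here.

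Members, role lists, markers and tests were chosen with earlier results of these data known. Per-library values were given for the 10 members with the smallest p in each tissue, 8 in the interaction, Ppara, and members that other tissues' markers bear on, and up to 6 other pathway genes per tissue were named by p. In liver Cpt1a, Angptl4, Fgf21, Cyp4a31 and Cyp4a32, and in eWAT the markers Csf1r, Lyz2, Adgre1, Cd163, Clec4f and Cidea, were added after their values were seen. Alternatives were no dim filter, median centring, other eBayes settings, array weights, a replicate block, 1 fit of 16 libraries and leaving out libraries.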

Additional observations from a re-analysis of the deposited data

Results flagged for a closer look

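Of 150 groups of 4 values examined, 4 held a library far from the other 3 (2.67%), where chance gives about 1 in 20. Etfa read 15.06 in liver F1 1, against 14.23 to 14.35 in the other liver F1 libraries. Etfdh read 14.89 in liver F1 2, against 15.14 to 15.19 in the other liver F1 libraries, and 13.19 in eWAT CT 1, against 12.95 to 12.98 in the other eWAT CT libraries. Acot1 read 7.89 in liver CT 4, against 8.41 to 8.48 in the other liver CT libraries. Hadha had all liver F1 libraries below liver CT and all eWAT F1 libraries above eWAT CT, with a difference between the effects of -0.48 that limma's interaction test did not call (adjusted p = 0.469).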

How the results depend on the processing

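Over 18 alternatives for liver, 21 for eWAT and 29 for the interaction, the median differences kept their sign: -0.47 to -0.23 in liver, 0.20 to 0.30 in eWAT and -0.77 to -0.52 for the interaction. For peroxisomal steps these ranges were -0.70 to -0.42, 0.13 to 0.26 and -0.89 to -0.58, and for mitochondrial steps -0.35 to -0.22, 0.17 to 0.29 and -0.61 to -0.45. Of 669 single-gene alternatives for 30 results, 0 reversed and 5 gained a call. These results cover only the members with the smallest p in each fit and Ppara. Among the other members, Fabp1, Bdh1 and Creb3l3 changed sign in eWAT with the hepatocyte covariate. They were at -0.39, -0.99 and -0.27, against 1.73, 0.27 and 0.475 with all libraries and no covariate. Vnn1 (0.625 with all libraries) and Bdh1 were at -0.57 and -0.53 without eWAT CT 3, F1 2 and F1 4. Leaving out CT 4 as well, they were at -0.61 and -0.105. In the interaction Creb3l3 was at 0.30 with the covariate, against -0.45. Cpt1b was there at 0.115 without eWAT CT 3, F1 2 and F1 4, against -0.025. Sign changes outside the 30 results were not counted in full. The interaction calls of Slc27a2 and Fabp1 given below are also outside the 5. With eBayes trend and robust settings 74 genes and 3 members were called in liver (Bdh1, Acaa1b and Ehhadh, adjusted p = 0.00317, 0.00694 and 0.0193) and 32 genes in the interaction, and the cause was not tested. In 1 fit of 16 libraries 51 genes and 1 member (Acaa1b, adjusted p = 0.0214) were called in liver and 25 genes in eWAT. Bdh1 in liver was at -1.20 ± 0.67 in that fit, with an adjusted p of 0.666. Without liver F1 4 the interaction called 22 genes and 1 member (Ech1, adjusted p = 0.0467), and without the 4 eWAT libraries with the most hepatocyte transcripts 175 genes and 2 members (Slc27a2 and Fabp1). Without liver F1 1 and F1 2, 9 liver genes were called and the median of the members was -0.23. Leaving out 1 library at a time gave 7 to 24 liver genes (7 without CT 2 or F1 3, 8 without CT 4, 10 without CT 3 or F1 2), 0 to 1 eWAT genes (1 without CT 4 or F1 4) and 7 to 27 interaction genes (7 without eWAT CT 3, 22 without liver F1 4, 27 without eWAT F1 3), with 0 to 1 members called in the interaction and 0 in either tissue. The labels do not say that a replicate number marks a shared animal, litter or batch, and same-number correlations were -0.057 to 0.056 between liver groups, -0.307 to 0.213 between eWAT groups and 0.012 to 0.048 between tissues, so no pairing was used. Between tissues all 4 F1 numbers and CT 1 and CT 4 correlated best with their own number, which is a hint from the data and not from the design. The replicate block joined F1 and CT libraries of the same number within a tissue. With this block 6 liver genes and 1 interaction gene were called, and no member. No fit joined libraries of the same number across the tissues. The number of arrays limits these results, and faint members (Fgf21 and, in eWAT, Acot1) lie near the level of probe sets left out as dim.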
